A study of Mus musculus with 54 samples.

Results

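The expression of 10 genes of hepatic fatty acid uptake and triglyceride synthesis was examined in the livers of mice given diisononyl phthalate (DINP), a plasticizer. The genes are Cd36, Slc27a2, Slc27a5, Fabp1, Acsl1, Acsl5, Gpam, Dgat1, Dgat2 and Mogat1. They were chosen by their function, with earlier results of these data known. All 10 were found by symbol among the 20162 rows of the expression table, and all 10 were among the 11431 rows that were tested. The mice were wild-type C57BL/6J males that were housed singly and fed a high-fat diet from the age of 8 weeks, the controls included. They were given oral DINP in gelatin pellets for 20 weeks, with daily doses of 1.5, 15 and 150 mg per kg of body weight (mg/kg), or placebo pellets, so that every group is a model of diet-induced obesity and none was fed regular chow. RNA of the medial liver lobe was sequenced from 14 control mice and from 13, 13 and 14 mice of the low, middle and high dose, 1 library per mouse, with the QuantSeq protocol, in which reads come from the 3′ end of polyadenylated RNA. The question was whether the expression of these genes differed between each dose and the control, and between the doses.

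Long-chain fatty acids reach hepatocytes from the blood through membrane proteins such as CD36 and the fatty acid transport proteins, are carried through the cytosol by fatty acid binding protein, and are activated to acyl-CoA by the acyl-CoA synthetases. The glycerol phosphate pathway, which begins with GPAM, and the monoacylglycerol pathway, which begins with the MOGAT enzymes, both join acyl-CoA to a glycerol backbone, and the DGAT enzymes add the last acyl chain of a triglyceride. Many genes of fatty acid uptake and activation are known targets of the nuclear receptor PPARα, and genes of synthesis such as Gpam are known targets of SREBP-1c.

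Expression values are given as scaled TPM: they were read, from their steps in each library, as rounded TPM (transcript abundance scaled to a common sum) divided by a size factor. Sums per library were 747258 to 1076440, and they do not show the sequencing depth, which is unknown. In 7 libraries the median correlation with the other libraries was low (0.910 to 0.942, against 0.947 to 0.962 in the others): control replicates 8 and 9, and replicates 5 to 9 at 15 mg/kg. The summed share of 15 mitochondrially encoded genes had medians of 33.2% in the control group and 30.8%, 31.1% and 34.7% at 1.5, 15 and 150 mg/kg. In bulk tissue, fewer cells of a type and less RNA per cell cannot be told apart.

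At 150 mg/kg, the transporter gene Slc27a2 and the acyl-CoA synthetase gene Acsl1 were higher than in the control group, by 1.47-fold and 1.64-fold. At 15 mg/kg, Fabp1, Slc27a5 and Slc27a2 were higher, and the Fabp1 and Slc27a5 differences were mostly lost without the libraries of low correlation. The Slc27a2 call at this dose was lost without any 1 of 3 mice and with the 2 groups alone, and the rank-sum test called none of these genes there. At 1.5 mg/kg no member passed the test, although Cd36 and Mogat1 were spread far more widely there than in the control mice. Of the genes of synthesis, Gpam, Dgat1 and Dgat2 did not pass the test in any comparison.

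The tests were made in limma on log2(value + 1), with Benjamini-Hochberg adjustment over all 11431 rows, and a DEG was a gene with an adjusted p under 0.05 and a log2FC beyond 0.5. At 150 mg/kg, 2 of the 10 members had an adjusted p under 0.05, where 2.17% of all tested rows did, and both were DEGs, as were 0.840% of all rows. At 15 mg/kg, 3 members passed (14.2% of all rows) and 1 was a DEG (3.72% of all rows). By the rank-sum test 0 members passed at this dose, where 679 of the 11431 rows did against 1621 by limma. With these 2 groups alone, or without the libraries of low correlation, 1 member passed, and the calls over all rows were 1069 and 493. At 1.5 mg/kg, 0 members passed by limma (1.20% of all rows) and 0 were DEGs (0.367% of all rows). There 2 members had an unadjusted p under 0.05, and 0 passed the adjusted p by the Wilcoxon rank-sum test. Fabp1, with an unadjusted p of 0.0588 (limma), ranked 1567 by p among the 11431 rows at this dose. An unadjusted p near 0.05 was thus common over all rows. The median log2FC of the 10 members was 0.14 at 150 mg/kg, where that of all rows was -0.01, 0.07 at 15 mg/kg (-0.00 over all rows) and 0.04 at 1.5 mg/kg (0.00 over all rows). The 3 comparisons share their control mice. p-values measure the spread between the mice of these groups.

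**Figure D1:**
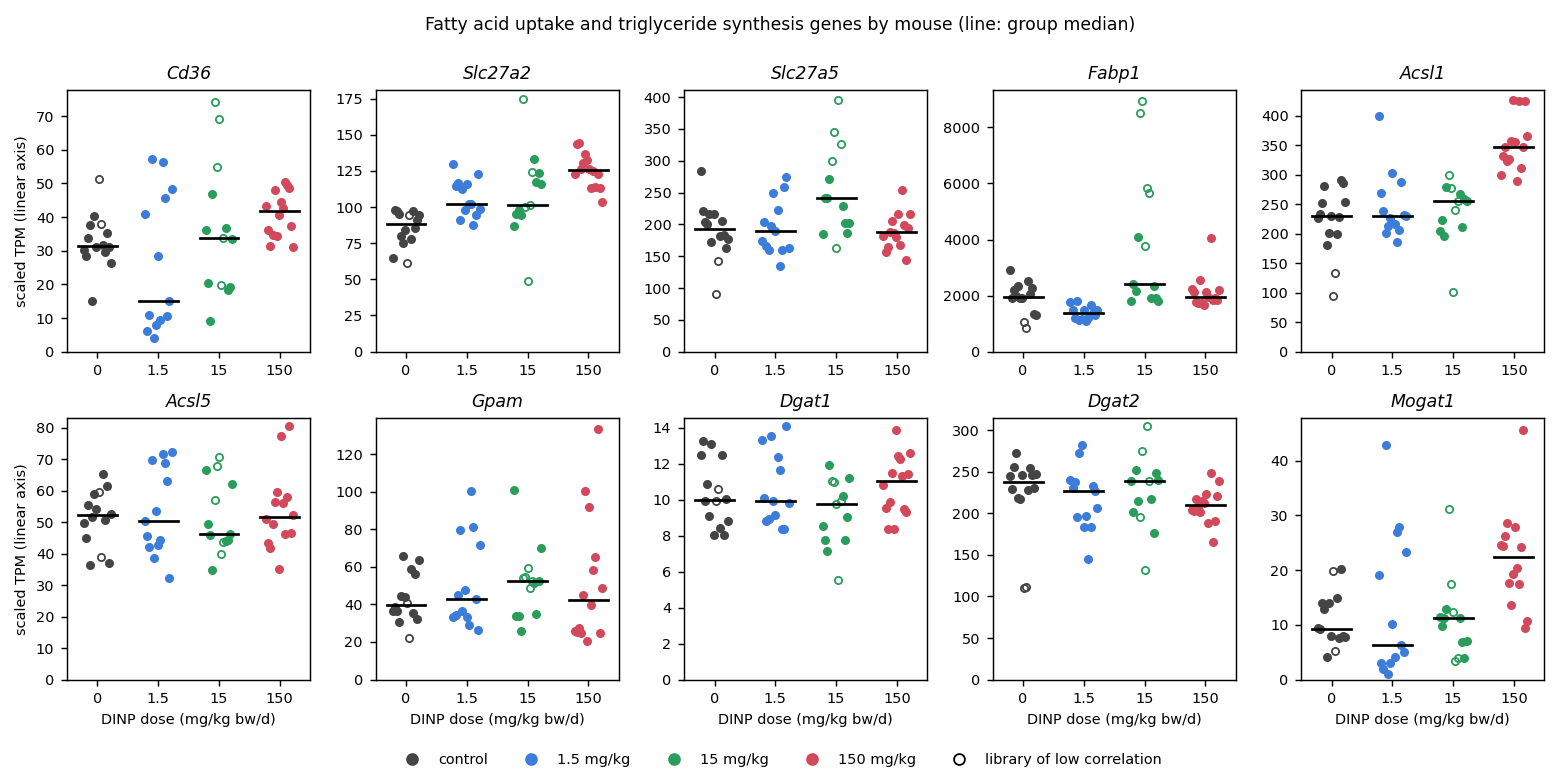
Scaled TPM of the 10 genes in each of the 54 mice against the DINP dose (linear axes that start at 0). Points are mice, open points are the 7 libraries of low correlation, and lines are group medians. All 14 mice at 150 mg/kg lie above the highest control mouse for Slc27a2, and 13 of the 14 do so for Acsl1.

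Cd36 encodes the fatty acid translocase of the cell surface (chr5:17781690-17888801, minus strand, GRCm38). Its values were 15.2, 31.5 and 51.2 (lowest, median and highest) in the control mice, 4.17, 15.1 and 57.2 at 1.5 mg/kg, 9.19, 33.8 and 74.2 at 15 mg/kg, and 31.0, 41.7 and 50.3 at 150 mg/kg. The groups overlapped at every dose. At 1.5 mg/kg the mice stood apart in 2 sets, with 7 mice between 4.17 and 15.1, all of them below the lowest control mouse, and 6 mice between 28.4 and 57.2. The coefficient of variation was 78.5% at this dose, against 24.5% in the control mice, 55.4% at 15 and 16.6% at 150 mg/kg. The log2FC against the control was -0.74 (SE 0.288, adjusted p = 0.244, limma) at 1.5, -0.02 (adjusted p = 0.972) at 15 and 0.33 (adjusted p = 0.655) at 150 mg/kg, so that Cd36 passed against the control at no dose. Between doses, Cd36 was higher at 150 than at 1.5 mg/kg (log2FC 1.07, SE 0.288, adjusted p = 0.0206). This difference lost its call without replicate 5 at 1.5 mg/kg, the mouse with the lowest value (adjusted p = 0.0541), and in the rank-sum test (adjusted p = 0.338).

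Slc27a2 encodes FATP2, a transporter that also has very-long-chain acyl-CoA synthetase activity (chr2:126552407-126588243, plus strand). Its values were 61.2, 88.5 and 97.9 in the control mice and 104, 126 and 144 at 150 mg/kg, so that these groups did not overlap. At the lower doses the values were 87.5, 102 and 130 at 1.5 mg/kg, where 10 of 13 mice lay above the highest control mouse, and 48.7, 102 and 175 at 15 mg/kg, where 9 of 13 did. The log2FC against the control was 0.32 (SE 0.0992, adjusted p = 0.10, limma) at 1.5, 0.31 (SE 0.0992, adjusted p = 0.0285) at 15 and 0.56 (SE 0.0974, adjusted p = 0.000201) at 150 mg/kg. The estimates at 1.5 and 15 mg/kg were close to each other, and the call at 1.5 depended on the fit: with these 2 groups alone the adjusted p was 0.0197, and without the 7 libraries of low correlation it was 0.0124. The call at 15 mg/kg was lost without control replicate 8 (adjusted p = 0.0586), without replicate 5 at that dose (0.0801) or without replicate 9 (0.0538), with the 2 groups alone (0.119), by the rank-sum test (0.0522) and without the 2 control libraries of low correlation (0.0605). Between doses, no difference of Slc27a2 passed in the fit of all 54 mice, and the log2FC of 150 against 1.5 mg/kg was 0.24 (95% confidence interval 0.04 to 0.43, adjusted p = 0.181, limma). The latter passed with these 2 groups alone, by the rank-sum test and without the 7 libraries of low correlation.

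Slc27a5 encodes FATP5, the liver's bile acid-CoA ligase and a fatty acid transport protein (chr7:12988346-12998192, minus strand). Its values were 91.0, 192 and 284 in the control mice, 135, 189 and 274 at 1.5, 162, 242 and 396 at 15 and 144, 187 and 255 at 150 mg/kg. The groups overlapped, and 4 of the 13 mice at 15 mg/kg lay above the highest control mouse. Slc27a5 was higher at 15 mg/kg than in the control group (log2FC 0.41, SE 0.124, adjusted p = 0.0203, limma), than at 1.5 mg/kg (0.34, adjusted p = 0.0432) and than at 150 mg/kg, where the log2FC of 150 against 15 was -0.38 (adjusted p = 0.0234). The log2FC against the control was 0.06 (adjusted p = 0.903) at 1.5 and 0.03 (adjusted p = 0.957) at 150 mg/kg. Without the 7 libraries of low correlation, the values at 15 mg/kg were 185, 216 and 272 in 8 mice, the log2FC against the control was 0.13, and the adjusted p was 0.591. The differences between doses did not pass in that fit either, with a log2FC of 0.18 (adjusted p = 0.336) for 15 against 1.5 and -0.22 (adjusted p = 0.220) for 150 against 15 mg/kg. The call against the control was also lost with the 2 groups alone (adjusted p = 0.0700), with array quality weights (0.0575), by the rank-sum test (0.131) and without the 2 control libraries of low correlation (0.0927). It was lost as well without replicate 8 at 15 mg/kg (adjusted p = 0.0534). That of 150 against 15 was lost without replicate 6 (0.0514) or replicate 8 (0.0608) at 15 mg/kg and by the rank-sum test (0.0725). That of 15 against 1.5 was lost without any 1 of 14 of the 26 mice (adjusted p up to 0.101), and with no filter, quantile normalization, 2 groups alone, array quality weights, a replicate block and the rank-sum test (adjusted p 0.0653 to 0.163).

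Fabp1 encodes the liver fatty acid binding protein, which carries fatty acids and acyl-CoA in the cytosol (chr6:71199827-71205023, plus strand). Its values were 833, 1950 and 2925 in the control mice, 1078, 1382 and 1817 at 1.5, 1795, 2406 and 8923 at 15 and 1647, 1937 and 4057 at 150 mg/kg. At 1.5 mg/kg all 13 mice lay below the control median, and at 15 mg/kg 6 of 13 lay above the highest control mouse. Fabp1 was a DEG at 15 mg/kg (log2FC 0.87, SE 0.201, adjusted p = 0.00191, limma), and did not pass at 1.5 (log2FC -0.39, SE 0.201, adjusted p = 0.428) or 150 mg/kg (0.20, adjusted p = 0.710).

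The 13 mice at 15 mg/kg stood apart in 2 sets. Fabp1 was 1795 to 2406 in 7 mice, within the control range, and 3781 to 8923 in the other 6, replicates 4 to 9, of which 5 are libraries of low correlation. The median correlation with other libraries was 0.952 to 0.962 in the first set and 0.910 to 0.947 in the second. Slc27a5 was 185 to 242 in the first set and 162 to 396 in the second. Without the 7 libraries of low correlation, Fabp1 at 15 mg/kg no longer passed against the control (log2FC 0.14, adjusted p = 0.658, limma), with values of 1795, 2050 and 4073 in 8 mice against 1313, 2017 and 2925 in 12 control mice. In the same fit Fabp1 was lower at 1.5 mg/kg than in the control group (log2FC -0.55, adjusted p = 0.00822). Without only the 2 control libraries of low correlation the log2FC was the same and did not pass (adjusted p = 0.166). The call thus rests on also leaving out the 5 mice at 15 mg/kg. These mice are not in this comparison but enter the shared estimate of the spread and the choice of tested rows. Which of these moved the call was not tested. The rank-sum test did not call Fabp1 at 15 mg/kg with all mice (adjusted p = 0.196).

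**Figure D2:**
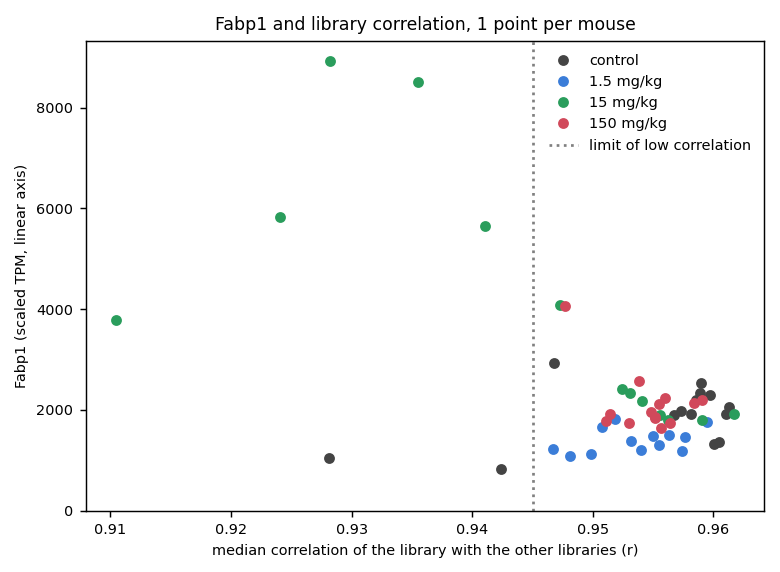
Fabp1 (scaled TPM, linear axis) of each of the 54 mice against the median correlation (r) of its library with the other libraries, coloured by group. The dotted line is the limit of low correlation, between 0.942 and 0.947. Left of it lie 5 mice at 15 mg/kg with Fabp1 from 3781 to 8923 and 2 control mice at 833 and 1049.

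Between doses, Fabp1 was higher at 15 than at 1.5 mg/kg (log2FC 1.26, SE 0.205, adjusted p = 1.51e-05, limma), and this difference passed without the 7 libraries too (log2FC 0.69, adjusted p = 0.0111). It was lower at 150 than at 15 mg/kg (log2FC -0.67, adjusted p = 0.0123), which was lost without the 7 libraries (log2FC -0.10, adjusted p = 0.734), with these 2 groups alone (adjusted p = 0.0507), with array quality weights (0.0802) and by the rank-sum test (0.117). The difference of 150 against 1.5 mg/kg was 0.59 (adjusted p = 0.0806), and passed without them.

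Acsl1 encodes the main long-chain acyl-CoA synthetase of liver and heart (chr8:46471037-46536051, plus strand). Its values were 94.0, 230 and 292 in the control mice, 186, 231 and 399 at 1.5, 101, 255 and 300 at 15 and 290, 347 and 427 at 150 mg/kg. At 150 mg/kg 13 of 14 mice lay above the highest control mouse, and the remaining mouse (290) was below that control mouse (292), so that the groups barely overlapped. The log2FC at 150 mg/kg was 0.72 (SE 0.129, adjusted p = 0.000337, limma), and it was 0.63 to 0.75 with each mouse left out in turn. Without the 7 libraries of low correlation, 2 of which are the control mice with the lowest Acsl1, it was 0.56 and the call held. At 1.5 and 15 mg/kg the log2FC was 0.19 (adjusted p = 0.603) and 0.11 (adjusted p = 0.639). Acsl1 was also higher at 150 mg/kg than at 1.5 (log2FC 0.53, SE 0.131, adjusted p = 0.0103) and at 15 mg/kg (log2FC 0.61, SE 0.131, adjusted p = 0.000605), and it was the one member that passed at 150 mg/kg against each of the other 3 groups.

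Acsl5 encodes an acyl-CoA synthetase of the endoplasmic reticulum and mitochondria (chr19:55251938-55297720, plus strand). Its values were 36.6, 52.2 and 65.4 in the control mice and 35.2, 51.8 and 80.7 at 150 mg/kg, with medians of 50.5 at 1.5 and 46.3 at 15 mg/kg. The groups overlapped over nearly their whole range. The log2FC at 150 mg/kg was 0.06 (95% confidence interval -0.18 to 0.30, adjusted p = 0.880, limma), so that the interval does not reach the value of Acsl1.

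**Figure D3:**
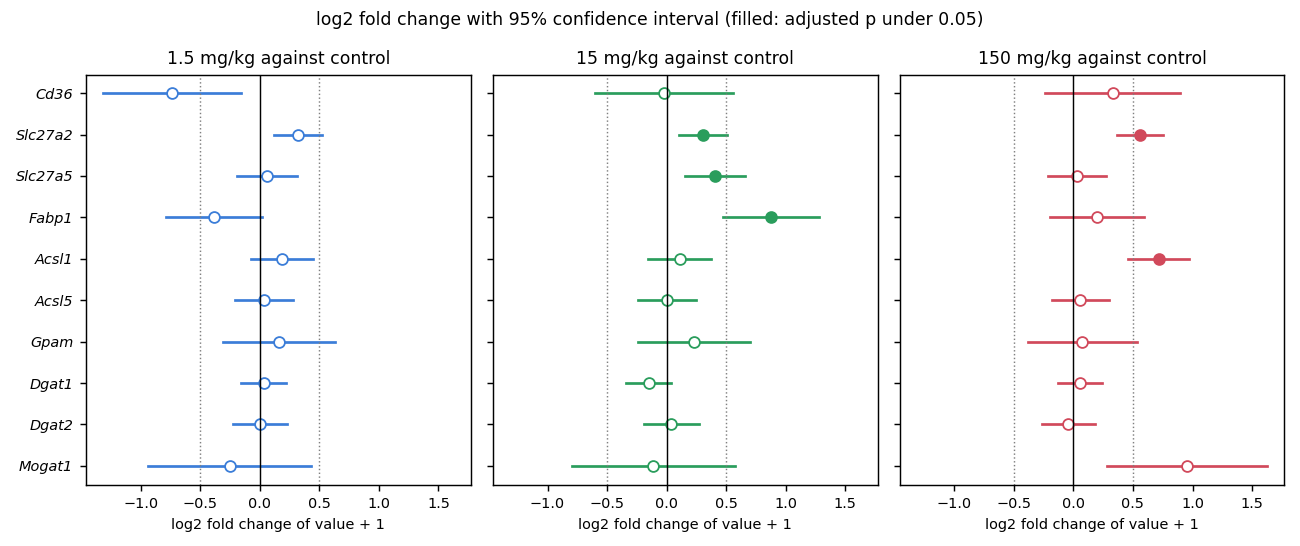
log2 fold change of value + 1 of each gene at 1.5, 15 and 150 mg/kg against the control, from limma. Lines are 95% confidence intervals, filled points have an adjusted p under 0.05, and dotted lines mark a log2FC of -0.5 and 0.5. Slc27a2 and Acsl1 are filled at 150 mg/kg, with log2FC of 0.56 and 0.72.

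The 250 bases upstream of a RefSeq start of these genes are shown for Slc27a2 and Acsl1, which were higher at 150 mg/kg, and for Fabp1, which differed between the doses. PPARα binds DNA at direct repeats of a hexamer, and a script searched both strands for the hexamer AGGTCA and for AGGNCANAGGNCA, a repeat of 2 hexamers with 1 base between them that can overlap the former. The sequences are RefSeq promoter entries on GRCm38.p6, which exist here for 7 of the 10 members, and run 5′ to 3′ along the gene, in lower case with the matches in capitals. They lie at chr6:71199629-71199878 (Fabp1), chr2:126552774-126553023 (Slc27a2), and chr8:46470787-46471036 and chr8:46490716-46490965 (both Acsl1 starts), all on the plus strand. The RefSeq starts differ from the GENCODE gene starts given above, except the first start of Acsl1: the windows of Slc27a2 and of the second Acsl1 start lie wholly inside the GENCODE gene, and that of Fabp1 lies partly inside it.
Fabp1: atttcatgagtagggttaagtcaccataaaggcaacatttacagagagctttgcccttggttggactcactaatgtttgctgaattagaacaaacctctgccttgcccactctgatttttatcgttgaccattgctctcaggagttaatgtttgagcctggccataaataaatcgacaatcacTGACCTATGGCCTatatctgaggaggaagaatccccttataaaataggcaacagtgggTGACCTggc
Slc27a2: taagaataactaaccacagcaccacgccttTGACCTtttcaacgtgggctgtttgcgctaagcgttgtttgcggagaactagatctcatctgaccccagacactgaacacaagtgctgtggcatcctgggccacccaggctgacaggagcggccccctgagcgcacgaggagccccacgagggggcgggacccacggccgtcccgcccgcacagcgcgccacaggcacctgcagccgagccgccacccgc
Acsl1, first start: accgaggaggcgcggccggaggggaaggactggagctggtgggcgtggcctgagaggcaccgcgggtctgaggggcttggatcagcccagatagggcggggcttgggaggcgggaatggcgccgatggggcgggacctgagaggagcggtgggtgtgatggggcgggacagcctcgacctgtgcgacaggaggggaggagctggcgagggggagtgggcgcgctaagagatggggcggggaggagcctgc
Acsl1, second start: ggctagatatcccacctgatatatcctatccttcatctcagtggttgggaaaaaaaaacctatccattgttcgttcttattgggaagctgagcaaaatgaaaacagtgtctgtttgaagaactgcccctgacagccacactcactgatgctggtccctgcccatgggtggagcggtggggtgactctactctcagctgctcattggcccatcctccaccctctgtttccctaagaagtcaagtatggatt
Fabp1 held the repeat, as TGACCTATGGCCT on the strand opposite to the gene at positions -67 to -55 from the start, and the hexamer once more between this repeat and the start. Of 32851 promoter windows of this length, 0.338% held the repeat and 14.0% held the hexamer. Slc27a2 held the hexamer at -220 and no repeat, and neither motif was found in these letters at both Acsl1 starts. Of the members not printed, Cd36 held the hexamer at -228 and Gpam held it at -196 of its second start, whereas the entries of Acsl5 and Mogat1 held neither. A match describes the letters and does not show binding.

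Gpam encodes the mitochondrial glycerol-3-phosphate acyltransferase, the first step of glycerolipid synthesis (chr19:55067268-55127238, minus strand). Its values were 22.1, 39.6 and 65.5 in the control mice, 26.2, 43.0 and 100.4 at 1.5, 25.9, 52.3 and 100.9 at 15 and 20.3, 42.3 and 134 at 150 mg/kg. The medians were similar while the highest mice were higher in all dose groups, and the coefficient of variation was 66.2% at 150 mg/kg against 30.3% in the control group. The log2FC was 0.16, 0.23 and 0.08 at 1.5, 15 and 150 mg/kg (adjusted p = 0.848, 0.564 and 0.928, limma), with a 95% confidence interval of -0.38 to 0.54 at 150 mg/kg.

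Dgat1 and Dgat2 encode the acyltransferases that complete triglycerides, of which DGAT2 mainly esterifies newly made fatty acids (Dgat1 at chr15:76502015-76511953 and Dgat2 at chr7:99153658-99182719, both on the minus strand). Dgat1 was 8.03, 9.99 and 13.3 in the control mice and 8.36, 11.1 and 13.9 at 150 mg/kg. Its log2FC was 0.03, -0.15 and 0.06 at the 3 doses (adjusted p = 0.931, 0.313 and 0.848, limma), with a 95% confidence interval of -0.13 to 0.24 at the highest dose. Dgat2 was 110, 238 and 273 in the control mice, where the 2 libraries of low correlation were the lowest, and 165, 210 and 248 at 150 mg/kg. The groups overlapped, although 12 of 14 mice at 150 mg/kg lay below the control median. Its log2FC was -0.00, 0.04 and -0.04 (adjusted p = 0.996, 0.861 and 0.912, limma), with a 95% confidence interval of -0.27 to 0.18 at 150 mg/kg. The log2FC of Dgat2 at this dose was -0.20 without the 2 control libraries (adjusted p = 0.280) and without all 7 (adjusted p = 0.126). For both genes the intervals at this dose, from the fit of all 54 mice, exclude a log2FC of 0.5 in either direction.

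Mogat1 encodes a monoacylglycerol acyltransferase that is low in lean liver and rises in steatosis (chr1:78510991-78538173, plus strand). Its values were 4.05, 9.26 and 20.1 in the control mice, 1.04, 6.30 and 42.9 at 1.5, 3.32, 11.2 and 31.1 at 15 and 9.35, 22.3 and 45.5 at 150 mg/kg. All 14 mice at 150 mg/kg lay above the control median and 8 lay above the highest control mouse. The log2FC at 150 mg/kg was 0.95 (SE 0.336, 95% confidence interval 0.28 to 1.62), and did not pass with all 4 groups in the fit (adjusted p = 0.134, limma). With these 2 groups alone the adjusted p was 0.00928 and by the rank-sum test it was 0.0393. The SD of log2(value + 1) was 0.610 in the control group, 1.45 at 1.5, 0.815 at 15 and 0.570 at 150 mg/kg, and the fit of all groups shares 1 estimate of the spread. Mogat1 was higher at 150 than at 15 mg/kg (log2FC 1.06, SE 0.342, adjusted p = 0.0209), which missed the threshold without the 7 libraries (adjusted p = 0.0522). It was also higher at 150 than at 1.5 mg/kg (log2FC 1.20, SE 0.342, adjusted p = 0.0283), but this call was lost without any 1 of replicates 2, 3, 5, 6 and 8 at 1.5 mg/kg (adjusted p 0.0540 to 0.0725), with the 2 groups alone (0.0647) and by the rank-sum test (0.218).

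Between doses, 2 members passed for 15 against 1.5 mg/kg (Fabp1 and Slc27a5, both higher at 15), where 21.4% of all tested rows did. For 150 against 1.5 mg/kg 3 members passed (Cd36, Acsl1 and Mogat1, all higher at 150), where 4.61% of all rows did. For 150 against 15 mg/kg 4 members passed, where 20.0% of all rows did: Acsl1 and Mogat1 were higher at 150, and Fabp1 and Slc27a5 were lower. The pairs of doses share mice with each other and with the comparisons against the control.

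How the members varied together was examined over the 54 mice with the group means removed from log2(value + 1), for all 45 pairs, with permutation tests within groups (100000 resamples, 2-sided) and adjusted p-values over the 45 pairs. By Pearson's r 15 pairs passed, 11 of them positive and 4 negative, and 13 of these pairs also passed by Spearman's rho. Cd36 and Mogat1 had an r of 0.80 and a rho of 0.76 (permutation p = 1e-05 for each, the smallest that 100000 resamples can give, and adjusted p = 0.00015 and 0.000225). Acsl5 and Gpam, an activating enzyme and the first acyltransferase, also had an r of 0.80, with a rho of 0.78 and the same permutation p-values. These 4 genes were joined by further positive pairs that passed, Acsl5 with Mogat1 (r 0.56, adjusted p = 0.000579), Cd36 with Acsl5 (0.46, adjusted p = 0.00814), Cd36 with Gpam (0.36, adjusted p = 0.0154) and Gpam with Mogat1 (0.35, adjusted p = 0.0305), of which the last did not pass by rho (adjusted p = 0.101). Without the 1.5 mg/kg group, r was 0.43 for Acsl5 with Mogat1 and 0.32 for Cd36 with Acsl5. It was 0.21 for Cd36 with Gpam and 0.17 for Gpam with Mogat1. Within the control, 1.5, 15 and 150 mg/kg groups, Cd36 with Acsl5 had an r of 0.05, 0.65, 0.47 and 0.41. Cd36 with Gpam had -0.13, 0.65, 0.37 and 0.40, and Gpam with Mogat1 had 0.38, 0.68, 0.01 and 0.22.

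**Figure D4:**
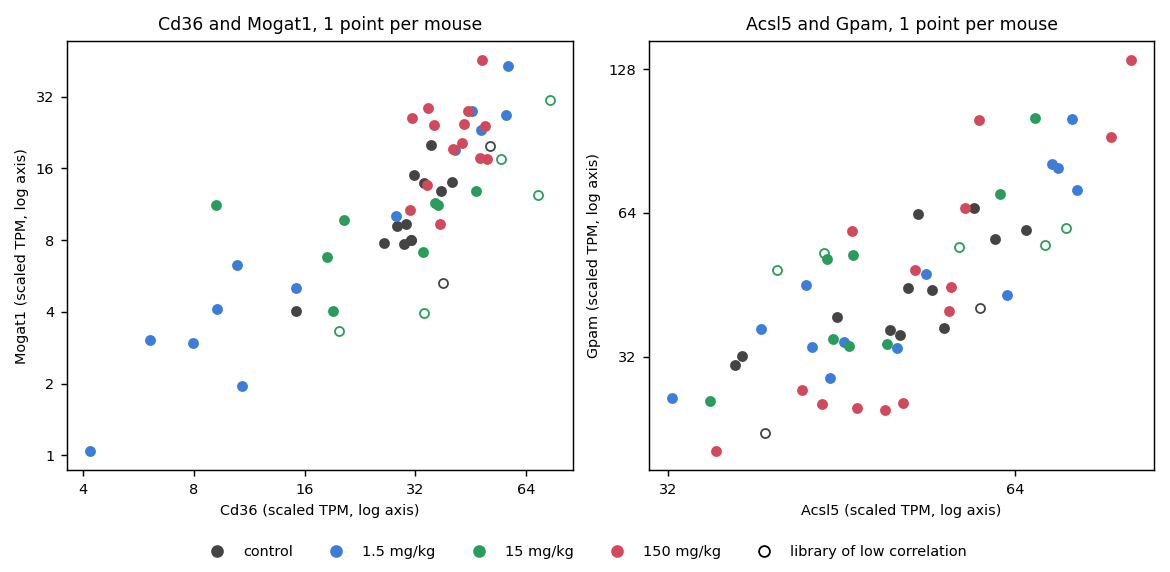
Mogat1 against Cd36 and Gpam against Acsl5 in the 54 mice (scaled TPM, log axes), coloured by group, with the 7 libraries of low correlation as open points. The mice at 1.5 mg/kg span Cd36 from 4.17 to 57.2 and Mogat1 from 1.04 to 42.9 and lie along a rising line.

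The r of Cd36 and Mogat1 was 0.71, 0.96, 0.57 and 0.36 within the control, 1.5, 15 and 150 mg/kg groups, 0.83 without the 2 mice farthest from the median of Cd36, 0.83 without the 7 libraries of low correlation and 0.54 without the 1.5 mg/kg group. At 1.5 mg/kg the 7 mice with the lowest Cd36 were also the 7 with the lowest Mogat1, at 1.04 to 6.30, while the other 6 had 10.2 to 42.9. Since the mice at this dose lie in 2 sets by their Cd36, found after the values were seen, the r of 0.96 spans the gap between the sets. Within the sets r was 0.72 (n = 7) and 0.93 (n = 6), and rho was 0.54 and 0.83. These are given as a description, and their tests are not used, since the sets were chosen after the values were seen. The r of Acsl5 and Gpam varied less, at 0.78, 0.88, 0.72 and 0.85 within the 4 groups, 0.77 without the 2 farthest mice and 0.83 without the 7 libraries.

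A further set of positive pairs joined Acsl1, Dgat2, Slc27a5, Slc27a2 and Fabp1, and it was weaker without the 7 libraries. Of the positive pairs given here, the one that fell furthest was Slc27a5 and Acsl1, with an r of 0.53 (rho 0.37, permutation p = 0.00026 and 0.00716, adjusted p = 0.00146 and 0.0248), which was 0.15 without these libraries and 0.42 without the 2 farthest mice. Acsl1 and Dgat2 had an r of 0.72 (rho 0.49, permutation p = 3e-05 and 0.00037, adjusted p = 0.000337 and 0.00307), which was 0.39 without these libraries and 0.53 without the 2 farthest mice. Slc27a5 and Dgat2 had an r of 0.66 (rho 0.51, permutation p = 1e-05 and 0.00013, adjusted p = 0.00015 and 0.00195), which was 0.42 without these libraries and 0.54 without the 2 farthest mice. Slc27a5 and Fabp1 had an r of 0.60 (rho 0.51, permutation p = 4e-05 and 0.00041, adjusted p = 0.00036 and 0.00307), which was 0.36 without these libraries and 0.54 without the 2 farthest mice. It was -0.34 within the 1.5 mg/kg group, against 0.64 to 0.78 in the other 3 groups. Slc27a2 and Acsl1, the 2 genes that were higher at 150 mg/kg, had an r of 0.62 (rho 0.45, permutation p = 8e-05 and 0.00096, adjusted p = 0.000579 and 0.0054), with 0.46 without the 2 farthest mice, 0.42 without these libraries and 0.05 within the 150 mg/kg group. Among the negative pairs, Cd36 and Dgat2 had an r of -0.43 (rho -0.43, permutation p = 0.00067 and 0.0023, adjusted p = 0.00335 and 0.0115), which was -0.40 without the 2 farthest mice and -0.49 without the 7 libraries. Dgat1 had an r from -0.21 to 0.17 with the other 9 members over the 54 mice, and from -0.53 to 0.73 within single groups.

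**Figure D5:**
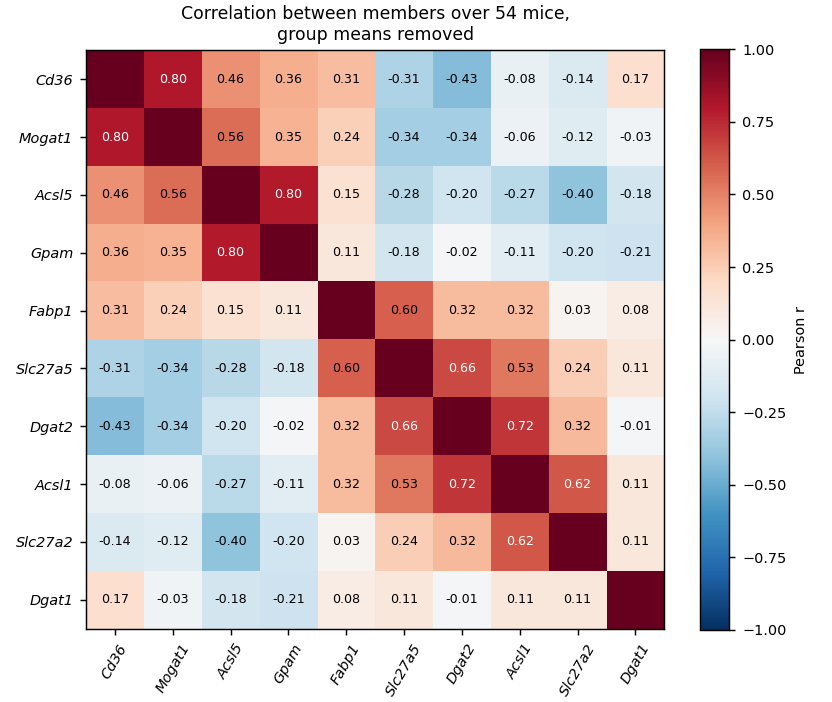
Pearson r between the 10 genes over 54 mice, on log2(value + 1) with group means removed, from blue (-1) through white (0) to red (1), with r printed in each cell. The pairs of Cd36 with Mogat1 and of Acsl5 with Gpam reach 0.80, and Dgat1 stays between -0.21 and 0.17.

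Tested genes among the 3 most alike each member over the 54 mice, by r on the same scale, are given as a description. For Cd36 they were Lgals1 (0.93), Vnn1 (0.88) and Rad51b (0.86), and for Mogat1 Cyp2a22 (0.81), Cd36 (0.80) and Saa2 (0.75). Acsl5 was most alike Aqp8 (0.92), Acacb (0.87) and Elovl5 (0.87), and Gpam was most alike Acly (0.90), Sc5d (0.89) and Chrna4 (0.86). For Fabp1 they were Ndufs5, Slc25a5 and Atp5mk (each 0.90), which encode mitochondrial proteins, and among those of Slc27a5 were Serpina1b (0.90) and CYTB (0.87). Acsl1 was most alike Hpgd (0.86), Nr1i3 (0.83) and Cpox (0.83), and among those of Slc27a2 were Sord (0.70) and Retsat (0.69), while Dgat2 was most alike Cyp2c50 (0.83), Sult2a8 (0.82) and Cyp2c29 (0.82). Without the 7 libraries the values of Dgat2 were 0.55, 0.63 and 0.50, those of Acsl1 were 0.75, 0.59 and 0.71, and those of Slc27a2 with Sord and Retsat were 0.46 and 0.63, while those of Cd36, Acsl5 and Gpam were 0.85 to 0.94. For Dgat1 the highest r was 0.48, with Adrb1.

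The other genes of the pathway were given by 3 lists. Over all rows, 1.20%, 14.2% and 2.17% passed by limma at 1.5, 15 and 150 mg/kg. Of 12 other genes of uptake and binding 9 were tested, and 0 passed by limma at 1.5 mg/kg (1 at an unadjusted p under 0.05, and 0 by the rank-sum test) or at 150 mg/kg (2, and 1 by the rank-sum test, Vldlr, whose log2FC was 0.37 with an adjusted p of 0.226 by limma). Fabp2 passed at 1.5 mg/kg without the 7 libraries of low correlation. Slc27a1, Slc27a3 and Slc27a6 were not tested. Slc27a1 had 0.274 ± 0.451 (mean ± SD, n = 14) in the control mice and 1.18 ± 0.558 (n = 14) at 150 mg/kg. Its means were 0.449 at 1.5 and 0.236 at 15 mg/kg. Its mean over all mice was under the filter, so that its higher value at 150 mg/kg was not tested. At 15 mg/kg Dbi, the acyl-CoA binding protein gene, was higher (log2FC 0.42, adjusted p = 0.0157) and Slc27a4, a transport protein gene, was lower (-0.25, adjusted p = 0.0397), and neither passed without the 7 libraries of low correlation. Of 8 other genes of activation 6 were tested, and 0 passed by limma at 1.5 mg/kg (1 at an unadjusted p under 0.05) or at 150 mg/kg (2), with 0 at both doses by the rank-sum test. At 15 mg/kg the medium-chain synthetase genes Acsm3 (log2FC 0.58, adjusted p = 0.00196) and Acsm5 (0.33, adjusted p = 0.0367) were higher and Acsm1 was lower (-0.46, adjusted p = 0.00359), and of these only Acsm5 passed without the 7 libraries and only Acsm1 by the rank-sum test.

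Of 16 other genes of triglyceride synthesis 12 were tested. At 1.5 mg/kg 0 of them passed by limma (5 at an unadjusted p under 0.05, and 1 by the rank-sum test). At 15 mg/kg 1 passed and at 150 mg/kg 4 did, all of them higher, where 14.2% and 2.17% of all rows passed. Lpin2, which encodes a phosphatidate phosphatase, had 44.0 ± 8.80 (mean ± SD, n = 14) in the control mice, 64.2 ± 19.5 (n = 13) at 15 and 89.4 ± 31.0 (n = 14) at 150 mg/kg. It was higher at 15 (log2FC 0.50, adjusted p = 0.0309, limma) and at 150 mg/kg (log2FC 0.95, adjusted p = 0.000132). Also higher at 150 mg/kg were Lclat1 (0.52, adjusted p = 0.0276) and Agpat3 (0.44, adjusted p = 0.0283), which encode acyltransferases of lysophospholipids, and the lipid phosphatase gene Plpp3 (0.31, adjusted p = 0.0158). At this dose 11 of the 12 tested genes had a log2FC above 0, with a median of 0.13 where that of all rows was -0.01. The exception was Lpin1 (log2FC -0.32, adjusted p = 0.423, limma). By the rank-sum test 0 of the 12 passed at 15 mg/kg, Lpin2 included, and at 150 mg/kg these 4 and Gpat3 did. Lpin2 passed at both doses without the 7 libraries, and Agpat3 and Plpp3 passed at 150 mg/kg, whereas Lclat1 did not. In that fit Gpat3 passed too at 150 mg/kg, Gpd1 at 15 mg/kg, and Agpat1 and Gpd1 at 1.5 mg/kg. With all mice the log2FC of Gpd1 was -0.31 at 1.5 (adjusted p = 0.170) and -0.21 at 15 mg/kg (adjusted p = 0.215), that of Agpat1 was 0.49 at 1.5 (adjusted p = 0.0895) and that of Gpat3 was 0.58 at 150 mg/kg (adjusted p = 0.0769). The 1 gene that passed by the rank-sum test at 1.5 mg/kg was Gpd1.

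The label of the tissue was checked against the markers of hepatocytes and of the other cells that liver tissue holds. The 8 hepatocyte markers summed to 28171 to 51390 in the control mice, 37112 to 51832 at 1.5, 35820 to 56457 at 15 and 37351 to 46781 at 150 mg/kg, and none of them is at 0. Of these, Ttr was higher at 15 mg/kg (log2FC 0.42, adjusted p = 0.0231, limma) and Apoc3 was lower at 150 mg/kg (-0.30, adjusted p = 0.0179). Ttr did not pass at 15 mg/kg without the 7 libraries whereas Ass1 did, and by the rank-sum test 0 of the 8 passed at that dose. Since Cd36, Acsl1, Gpam, Dgat2 and Mogat1 are also genes of adipocytes, 8 adipocyte markers were examined, and their sums were 23.3 to 86.4 in the control mice and 32.4 to 107 at 150 mg/kg. The defining markers Adipoq, Lep and Plin1 had means of 0.136, 0 and 0.0728 in the control mice. At 1.5, 15 and 150 mg/kg the means were 0.468, 0.230 and 0.224 for Adipoq. They were 0, 0.0774 and 0 for Lep, and 0.0781, 0.0765 and 0 for Plin1. All of these markers were among the 4 too low to test. Of the 4 tested Cfd was higher at 150 mg/kg (2.07, adjusted p = 0.00335), and Cidec had a log2FC of 0.16 (adjusted p = 0.946, limma). At this dose 3 of the 4 had an unadjusted p under 0.05, in both directions: Lipe had a log2FC of 0.54 (adjusted p = 0.0918) and passed without the 7 libraries of low correlation, and Fabp4 had a log2FC of -0.68 (adjusted p = 0.146). At 15 mg/kg 1 of 8 macrophage markers (Csf1r, -0.60, adjusted p = 0.0114) and 1 of 8 endothelial markers (Pecam1, -0.52, adjusted p = 0.000867) were lower. Neither passed without the 7 libraries, nor Csf1r by the rank-sum test. By limma 14.2% of all rows passed at 15 mg/kg and 2.17% at 150 mg/kg. The counts of 1 of 8 at 15 mg/kg, that of the hepatocyte markers included, are near the share of all rows. No marker of stellate cells (6 of 8 tested), cholangiocytes (4 of 6 tested) or lymphocytes (2 of 6 tested) passed against the control at any dose by limma or the rank-sum test, with 0 or 1 of each list at an unadjusted p under 0.05 at each dose. Markers also differed between doses by limma. For 150 against 15 mg/kg, Apoc3 (log2FC -0.50), Ass1 (-0.62) and Ttr (-0.37) were lower at 150. Pecam1 (0.39), Kdr (0.21), Sox9 (0.49), Lipe (0.82) and Cfd (2.42) were higher. For 15 against 1.5 mg/kg, Ttr (0.51), Apoa1 (-0.40) and Krt19 (-0.89) passed. For 150 against 1.5 mg/kg, Apoa1 (-0.35), Apoc3 (-0.39), Nkg7 (-1.12) and Cfd (2.41) passed. In these 3 pairs 20.0%, 21.4% and 4.61% of all rows passed. The part of these markers, and of the share of mitochondrially encoded genes, in the results of the members was not tested.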

How the data were processed

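Liver libraries of 54 mice were assigned to dose groups from their labels. Per the methods and the labels, the authors made QuantSeq 3′ libraries and ran the nf-core/rnaseq pipeline on GRCm38, with STAR, Salmon and RSEM. The deposited table holds 1 signal value per mouse and row, named TPM: in each library the values are whole multiples (within 0.01 step) of 1 step of 0.764 to 1.11, and these whole numbers sum to 948342 to 980641. They were read as rounded TPM that the authors divided by size factors, not as read counts, so that no count test was run and the depth is unknown. A file of TPM-like values had been allowed for in the design.

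Rows whose mean over the mice was 1 or more were fitted with limma 3.58.1 under R 4.3.3 (lmFit, then eBayes with a trend) on log2(value + 1), all 4 groups in 1 fit, with Benjamini-Hochberg adjustment over 11431 rows. Fold changes are of value + 1 and understate those of low genes. The members, the lists and the tests were chosen with earlier results of these data known. All 10 members are named, and other genes of the pathway and markers are named where they passed against the control by limma or in an alternative that the text gives. Markers are also named where they passed between doses by limma. Slc27a1, Lpin1 and some adipocyte markers are named for their values as well. Over 79 pairs of mice with the same replicate number in 2 groups, the mean correlation of deviations was -0.0025 (-0.359 to 0.243). The values thus showed no pairing by number, although pairs with different numbers were not compared. Correlations between members used Python 3.11.15 with numpy 2.4.6. The fit was tested on simulated data. Alternatives were pseudocounts of 0.1 and 5, no filter, a minimum mean of 5, quantile normalization, 2 groups alone, array quality weights, robust eBayes, a replicate block, a rank-sum test (normal approximation with tie correction), group medians and each mouse left out. 2 more, without the 7 libraries of low correlation and without the 2 control libraries among them, were chosen after seeing the data. Gene positions are from GENCODE M21, and promoters from RefSeq on GRCm38.p6. Proteins were not used here. 2 of the genes most alike a member are not reported here.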

Additional observations from a re-analysis of the deposited data

How the results depend on the processing

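The calls of Slc27a2 and Acsl1 at 150 mg/kg held under every alternative with a test and without any 1 of 28 mice, with 2 members past the test, or 3 (Mogat1 too) with 2 groups alone and by the rank-sum test. The calls over all rows at 150 mg/kg rose too, from 248 to 375 with 2 groups alone and to 292 by the rank-sum test. At 1.5 mg/kg the count of 0 members became 1 with 2 groups alone or array quality weights and 2 without the 7 libraries of low correlation, where 1 of them was also past the log2FC of 0.5, while the calls over all rows rose from 137 to 277, 297 and 353. At 15 mg/kg the count of 3 became 1 with 2 groups alone, without the 7 libraries or without the 2 control libraries of low correlation, 2 with array quality weights, 0 by the rank-sum test, and 2 to 3 with a mouse left out, and the count of 1 DEG became 0 by the rank-sum test and without the 7 libraries. The calls over all rows at this dose fell too, from 1621 to 1069 with 2 groups alone, 493 without the 7 libraries, 1302 without the 2, 1137 with array quality weights and 679 by the rank-sum test. For 15 against 1.5 mg/kg the count of 2 became 1 with no filter, quantile normalization, 2 groups alone, array quality weights, the rank-sum test and without the 7 libraries, and 1 to 3 with a mouse left out. For 150 against 1.5 mg/kg the count of 3 became 5 without the 7 libraries (Fabp1 and Slc27a2 too), and was 4 with 2 groups alone, where Fabp1 and Slc27a2 passed and Mogat1 did not, 3 by the rank-sum test (Acsl1, Fabp1 and Slc27a2, not Cd36 or Mogat1), 4 with array quality weights (Fabp1 too), and 1 to 3 with a mouse left out (1 without replicate 5 at 1.5 mg/kg). For 150 against 15 mg/kg the count of 4 became 2 by the rank-sum test, 1 without the 7 libraries and 3 to 5 with a mouse left out. Fabp1 also lost its call for this pair with 2 groups alone and with array quality weights. Over all rows the calls without the 7 libraries went from 2449 to 780, from 527 to 846 and from 2282 to 1005 for these 3 pairs of doses, and those by the rank-sum test to 1143, 435 and 1246. With 2 groups alone they went to 1773, 697 and 1687, and with array quality weights to 1505, 769 and 1647. For 15 against 1.5 mg/kg they went to 2011 with no filter and 2390 with quantile normalization. The cause of these changes was not tested, beyond the fewer libraries that some of them use.

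With the replicate number as a block, the count for 15 against 1.5 mg/kg became 1, since Slc27a5 lost its call (adjusted p = 0.0699, limma), the log2FC of Dgat2 at 1.5 mg/kg turned to 0.0130, and the block changed no other call. The values showed no pairing by number: 12.7% of the 79 correlations were above 0.1, with a mean of -0.0025.

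Signs turned for log2FC that had not passed. By group medians, with no test, they turned for Slc27a5 (-0.0237), Acsl5 (-0.0469) and Dgat1 (-0.00927) at 1.5 mg/kg, Cd36 (0.0998), Acsl5 (-0.171) and Mogat1 (0.252) at 15, and Slc27a5 (-0.0356), Fabp1 (-0.00922) and Acsl5 (-0.0123) at 150 mg/kg. Without the 7 libraries, Slc27a5 was -0.0547 at 1.5 and -0.0889 at 150 mg/kg, Acsl1 -0.00812, Acsl5 -0.0732 and Dgat2 -0.114 at 15, and Gpam -0.000354 at 150 mg/kg. Without the 2 control libraries, Slc27a5 was -0.0547 and -0.0889 and Gpam -0.000354 at these doses, and at 15 mg/kg Cd36 was 0.0515, Acsl1 -0.0451, Acsl5 -0.00792 and Dgat2 -0.118. With quantile normalization Acsl5 was -0.0219 and Dgat2 -0.0433 at 15, and Slc27a5 -0.0189 at 150 mg/kg. With array quality weights Acsl5 was -0.0422 and Dgat2 -0.0305 at 15, and Slc27a5 -0.0133 and Gpam -0.0424 at 150 mg/kg. With a mouse left out, the log2FC ran from -0.00364 to 0.0917 for Acsl5, -0.0762 to 0.0447 for Dgat2 and -0.0172 to 0.108 for Slc27a5 at 1.5 mg/kg, from -0.0366 to 0.0472 for Acsl5, -0.126 to 0.114 for Cd36 and -0.0333 to 0.102 for Dgat2 at 15, and from -0.0463 to 0.158 for Gpam and -0.0514 to 0.0740 for Slc27a5 at 150 mg/kg. By group medians, the log2FC of Fabp1 was 0.30 at 15 mg/kg and 0.80 for 15 against 1.5 mg/kg. The unknown depth leaves the sampling error of low values, such as those of Mogat1 and Dgat1, without an estimate.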
